A study of Rattus norvegicus with 4 samples.

Results

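miR-28 and miR-151 are a pair of microRNA hairpins that are known, from human and mouse, to derive from LINE-2, an old family of transposable elements. They were followed here in exosomes (vesicles shed by cells into their medium) from rat adipose tissue and rat adipose stem cells. Their members were every row of the deposited tag tables whose precursor is named rno-mir-28 or rno-mir-151, which are 2 of the 302 named hairpins with a count, and 4 mature forms, of which 3 had a count, among 348 in all. Their distinct tags (read sequences) numbered 11 of 713 in Exo-AT replicate 1, 43 of 2591 in Exo-AT replicate 2 and 18 of 1894 in Exo-ADSCs replicate 2.

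The study has 4 small RNA libraries in 2 groups of 2. Exo-AT are exosomes from the medium of minced adipose tissue of SD rats aged 4 weeks, stirred at 100 r/min in a spinner flask with 75 mL of α-MEM for 3 days. Exo-ADSCs are exosomes from the medium of adipose stem cells at passage 3 after 3 days without serum. Both media were α-MEM with penicillin and streptomycin. An explant holds every cell type of the tissue, whereas the cultures hold expanded cells. Separate animals or cultures behind the replicates are not named in the labels, and p-values then measure the spread between these libraries, which may be technical.

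An animal miRNA hairpin is cut to a short duplex, and either strand, the 5p or the 3p arm, can enter an Argonaute protein, where bases 2 to 8 (the seed) select target RNAs. miR-28 lies within the span of Lpp, which encodes an adhesion and LIM domain protein, and miR-151 within that of Ptk2, which encodes focal adhesion kinase, by the RefSeq gene table. In human cells miR-28 is known as a brake on B-cell lymphoma growth, and miR-151-5p, expressed with its host gene, is known to promote migration of liver cancer cells.

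The RefSeq mature sequences (GRCr8 assembly) are shown because they place the forms in seed families, with the seed in capitals. The submitters' processing notes name rn6, so these positions are RefSeq's own: miR-28-5p is at chr11:89480303-89480324 and miR-28-3p at chr11:89480263-89480284, both on the minus strand.
miR-28-5p: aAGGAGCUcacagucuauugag
miR-28-3p: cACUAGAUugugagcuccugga
miR-708-5p: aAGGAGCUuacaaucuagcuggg
Among 693 mature sequences of that table, the seed of miR-28-5p was held by 2, itself and miR-708-5p, whose hairpin lies within Tenm4. The seed of miR-28-3p was held by that form alone.

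miR-151 is shown by its tags in the deposited files, written as DNA. They are the most counted 5p tag and the 16 nt 3p tag on which the length results below turn, with the seeds in capitals.
miR-151-5p, 21 nt: tCGAGGAGctcacagtctagt
miR-151-3p, 16 nt: cTAGACTGaggctcct
Bases 4 to 19 of the miR-151-5p tag are the same 16 bases as bases 2 to 17 of miR-28-5p. The frames differ by 2 bases, so the seeds differ. The 3p arms were less alike, with a longest shared run of 6 bases.

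Tag counts were used for 3 libraries, with 9134 counts on named hairpins in replicate 1 and 136024 in replicate 2 of Exo-AT, and 97204 in replicate 2 of Exo-ADSCs. Of Exo-ADSCs replicate 1, a column of the authors' deposited table was used. Of all named counts, tags of full miRNA length (21 to 23 nt) were 71.5% and 75.8% in Exo-AT and 24.8% in Exo-ADSCs replicate 2, where 18 nt was the most common length. Summed marker miRNAs of adipocytes came to 4.12% and 4.06% of the total in Exo-AT, against 0.902% in Exo-ADSCs replicate 2, with 6 of 6 detected in each. That sum hides members that went opposite ways in the edgeR test described below (adjusted p under 0.05). Lower in Exo-AT were miR-378a-3p (log2 fold change -1.59, Exo-AT over Exo-ADSCs) and miR-103-3p (-2.35). Higher there were miR-204-5p (3.42), miR-26a-5p (2.50), miR-30d-5p (2.96) and miR-30a-5p (2.17). The mesenchymal stromal list took 23.4% and 15.96% in Exo-AT and 20.6% in Exo-ADSCs replicate 2. The erythroid list stood at 5.10% and 16.7% in Exo-AT against 3.35%, the endothelial miR-126a at 0.383% and 0.510% against 0.0329%, and the leukocyte list at 0.0657% and 0.114% against 0.0154%. In Exo-ADSCs replicate 2, miR-150, miR-155 and miR-223 of the leukocyte list were at 0, and miR-223 was also at 0 in Exo-AT replicate 1. Other lists had members at 0 in Exo-AT too, such as miR-144 and miR-145 in replicate 1. miR-133b of the muscle list was at 0 in every library. The muscle list stood at 0.197% and 0.147% in Exo-AT against 0.0206%, and the epithelial list at 0.230% and 0.136% against 0.239%. The part of these cell types in the values below was not tested, and in such mixtures fewer cells of a type and less RNA per cell cannot be told apart.

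The numbers of the Exo-AT columns in the authors' deposited table go against those of the tag files. Among its 45 miRNAs, the column headed exo-at1 was proportional (within 5%) to the tag counts of Exo-AT replicate 2 in 36 of the 44 with a count, and to those of Exo-AT replicate 1 in 3 of 44. The column headed exo-at2 was proportional to the most counted tag of Exo-AT replicate 1 in 28 of 44. In the first column, for both forms listed there, the score per count of Exo-AT replicate 2 was the same: miR-28-3p had a score of 1960 for 360 counts and miR-151-5p a score of 261 for 48 counts, which is 5.44 per count each. In the second, miR-151-5p had 62.4 and miR-28-3p 38.9 score units per count of its most counted tag in Exo-AT replicate 1, where the median was 62.3, so miR-28-3p lay off that line. Both columns belong to the same group, so group values do not change with the numbering.

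**Figure D1:**
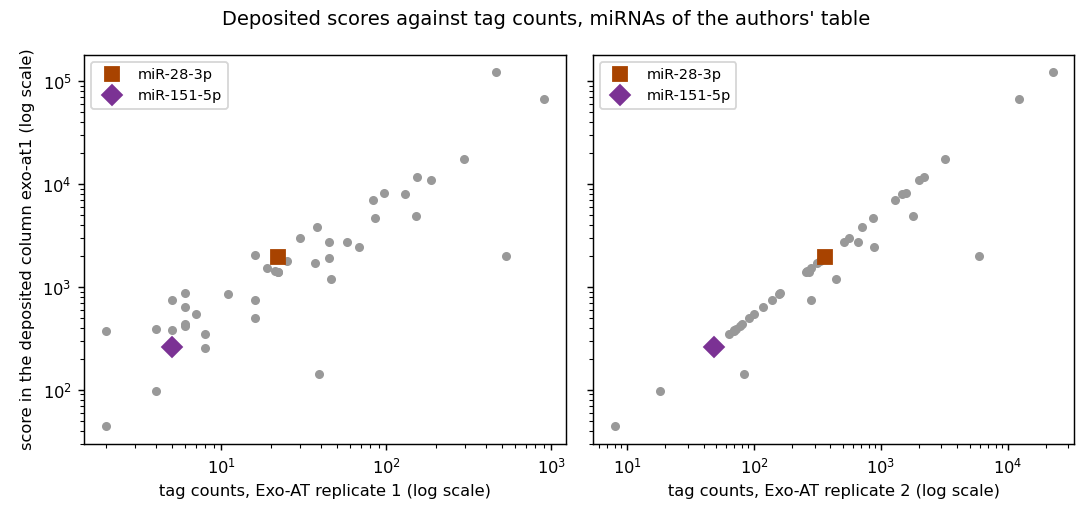
Score in the deposited column headed exo-at1 (vertical, log scale) against tag counts (horizontal, log scale) of Exo-AT replicate 1 on the left and Exo-AT replicate 2 on the right, 1 point per miRNA of the authors' table. Against replicate 2 the points fall on a line on which miR-28-3p and miR-151-5p lie, and against replicate 1 they scatter.

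miR-28-3p was the most abundant form of the pair. It had 22 counts in replicate 1 and 360 in replicate 2 of Exo-AT, and 100 in replicate 2 of Exo-ADSCs. As CPM, the count scaled to a common total of named counts, these are 2409 (Wilson 95% interval 1591 to 3644) and 2647 (2387 to 2934) in Exo-AT, and 1029 (846 to 1251) in Exo-ADSCs replicate 2. It ranked 37 of 140, 32 of 244 and 43 of 264 detected forms in these libraries. On this unscaled measure both Exo-AT libraries lay above Exo-ADSCs replicate 2, and the intervals did not overlap. Of the 183 miRNAs tested, 52.5% lay above in this way, and 37.7% did so with intervals apart.

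miR-151-3p followed, with 13 counts in replicate 1 and 241 in replicate 2 of Exo-AT, and 55 in replicate 2 of Exo-ADSCs. Its CPM were 1423 (832 to 2434) and 1772 (1562 to 2010) in Exo-AT and 566 (435 to 736) in Exo-ADSCs replicate 2. miR-151-5p had 5 counts in replicate 1 and 48 in replicate 2 of Exo-AT, and 9 in replicate 2 of Exo-ADSCs, or 547 (234 to 1281), 353 (266 to 468) and 92.6 (48.7 to 176) CPM. The order miR-28-3p, miR-151-3p, miR-151-5p was the same in the 3 libraries, but in Exo-AT replicate 1 the intervals of neighbours in this order overlapped.

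miR-28-5p had 0 counts in each of the 3 libraries. The limit that 0 sets, taken as 3 counts, is 328 CPM in Exo-AT replicate 1, 22.1 CPM in Exo-AT replicate 2 and 30.9 CPM in Exo-ADSCs replicate 2. Neither this limit nor the Wilson limits allow for tags with under 2 reads, of which these libraries list none. The 3p arm thus held 22 of 22, 360 of 360 and 100 of 100 counts of the miR-28 hairpin, with lower Wilson limits of 85.1%, 98.9% and 96.3%. miR-151 used both arms. Its 3p arm held 72.2% of hairpin counts in Exo-AT replicate 1 (13 of 18, interval 49.1–87.5), 83.4% in Exo-AT replicate 2 (78.7–87.2), and 85.9% in replicate 2 of Exo-ADSCs (75.4 to 92.4). These intervals overlap. With tags of 20 to 25 nt alone, the 3p share was 44.4% (18.9 to 73.3) and 80.8% (75.5 to 85.2) in Exo-AT replicates 1 and 2 and 100% (82.4 to 100) in Exo-ADSCs replicate 2. The interval of Exo-AT replicate 1, which rests on 9 counts, then lies below that of Exo-ADSCs replicate 2, and that of Exo-AT replicate 2 overlaps it. The intervals of the Exo-AT libraries do not overlap each other either, so this shows no difference between the groups. Without tags that carry a mismatch or indel, the 3p share was 72.2% (49.1 to 87.5) and 65.9% (57.6 to 73.4) in Exo-AT replicates 1 and 2. In Exo-ADSCs replicate 2 it was then 83.0% (70.8 to 90.8), and these intervals overlap.

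**Figure D2:**
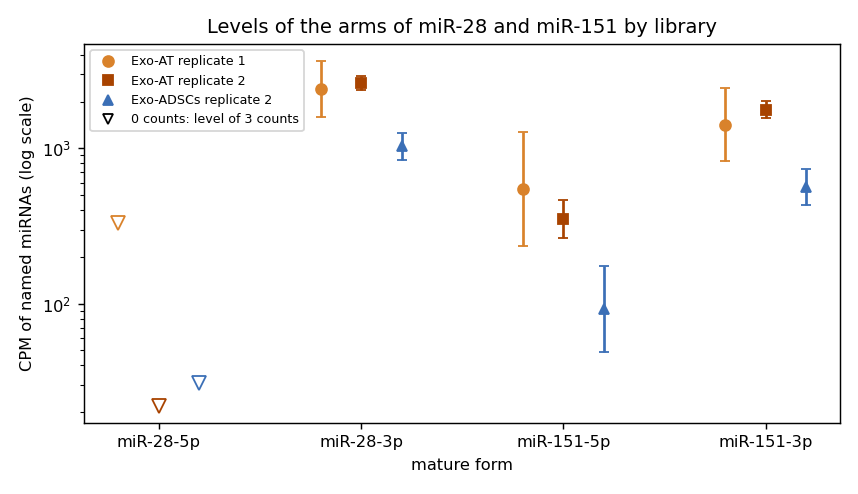
CPM of named miRNAs (log scale) for the 4 mature forms in Exo-AT replicates 1 and 2 and Exo-ADSCs replicate 2, with Wilson 95% intervals that cover counting error only; open triangles mark the level of 3 counts where a library had 0. miR-28-3p is the highest form in each library, miR-28-5p is at 0 in each, and every detected form is lowest in Exo-ADSCs replicate 2.

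The study compares vesicles of the tissue with those of its stem cells, and this comparison asked whether the pair differs between them. None of the 3 tested forms passed the test between Exo-AT and Exo-ADSCs. edgeR's quasi-likelihood test with TMM scaling, fitted over all 183 miRNAs that passed the filter on low counts, called 19.1% of them higher and 19.1% lower in Exo-AT at an adjusted p under 0.05 (Benjamini-Hochberg), and 0 of the 3. At an unadjusted p under 0.05 none of the 3 passed either. TMM-scaled miR-28-3p averaged 2094 ± 502 CPM (SD, n = 2) over the Exo-AT libraries and stood at 1558 CPM in Exo-ADSCs replicate 2. Its log2 fold change was 0.46 (SE 0.48, normal 95% interval -0.49 to 1.40, adjusted p = 0.455 by edgeR). miR-151-3p averaged 1333 ± 433 CPM (SD, n = 2) over the Exo-AT libraries and stood at 857 CPM in Exo-ADSCs replicate 2, and its log2 difference was 0.69 (SE 0.59, interval -0.46 to 1.84, adjusted p = 0.372 by edgeR). miR-151-5p averaged 361 ± 48.6 CPM (SD, n = 2) over the Exo-AT libraries and stood at 140 CPM in Exo-ADSCs replicate 2, a log2 fold change of 1.31 (SE 1.20, interval -1.04 to 3.65, adjusted p = 0.395 by edgeR).

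All 3 forms stood higher in both Exo-AT libraries than in Exo-ADSCs replicate 2 in TMM-scaled CPM, as did 39.3% of the 183 tested. The median log2 fold change was 0.69 over the 3 forms and 0.37 over the 183, and the ranks of miR-151-5p, miR-151-3p and miR-28-3p from the highest were 72, 85 and 90. The result turned on the scaling: with total-count scaling, miR-28-3p stood at 1.30 (adjusted p = 0.0344, edgeR) and miR-151-3p at 1.52 (adjusted p = 0.0361, edgeR) on the log2 scale, past the threshold, and the median of all miRNAs was then 1.21. With 1 Exo-ADSCs library of tag counts, the fit took its spread from the 2 Exo-AT libraries, whose tag files carry the same sample name inside.

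**Figure D3:**
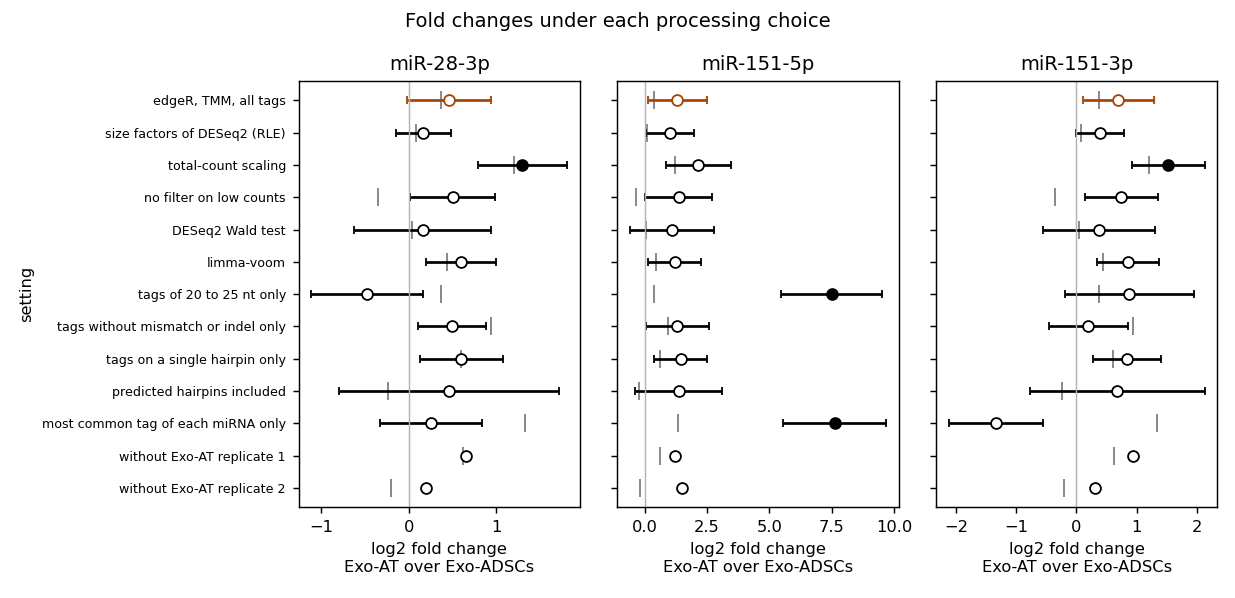
Log2 fold change (Exo-AT over Exo-ADSCs, horizontal) of the 3 tested forms under each processing setting (vertical), with bars of 1 SE where there is a test; filled points passed an adjusted p under 0.05 and grey ticks mark the median of all miRNAs tested in that setting. miR-28-3p and miR-151-3p pass with total-count scaling alone, and the points of miR-151-5p near 7.5 rest on 0 counts in Exo-ADSCs replicate 2, so that they give no size and support no difference.

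The ratio of the 3p forms within a library does not depend on scaling between libraries. miR-28-3p was 1.69 times miR-151-3p in Exo-AT replicate 1 (95% interval 0.863–3.32), 1.49 times in Exo-AT replicate 2 (1.27–1.76) and 1.82 times in Exo-ADSCs replicate 2 (1.31–2.52). The intervals overlap. By distance of centred log2(TMM-scaled CPM + 1) over the 3 libraries, miR-28-3p was among the 3 forms most like miR-151-3p (distance 0.203), after miR-148a-5p (0.0637) and before miR-106b-3p (0.231). The forms most like miR-28-3p were miR-106b-3p (0.103), miR-148a-5p (0.181) and miR-148b-3p (0.192). miR-151-5p was most like miR-320-5p (0.0406), miR-532-5p (0.139) and miR-139-5p (0.179).

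In level, miR-28-3p stood between miR-101b-3p (24 counts) and miR-379-5p (21) in Exo-AT replicate 1, and between miR-199a-3p (363) and miR-27b-3p (352) in Exo-AT replicate 2. In Exo-ADSCs replicate 2 it stood between miR-29a-3p (111) and miR-181b-5p (96), level with miR-214-3p. miR-151-3p stood between miR-29a-3p (14) and miR-181b-5p (12) in Exo-AT replicate 1, between let-7c-5p (252) and miR-320-3p (237) in Exo-AT replicate 2, and between miR-6328-5p (57) and miR-3473-3p (52) in Exo-ADSCs replicate 2. miR-151-5p stood between miR-103-3p (6) and miR-130a-5p (4) in Exo-AT replicate 1, between miR-186-5p (50) and miR-200a-3p (47) in Exo-AT replicate 2, and between miR-125a-5p (10) and miR-1298-3p (8) in Exo-ADSCs replicate 2. Several of these places were shared with other miRNAs of equal count, and differences of a few counts between neighbours are within counting error.

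The authors' deposited table, which lists miRNAs they chose as raised in Exo-AT and so gives no independent evidence of direction, holds miR-28-3p and miR-151-5p. In it miR-28-3p had normalized read scores of 1960 and 311 in the Exo-AT columns, against 486 and 139 in the Exo-ADSCs columns headed exo-adsc1 and exo-adsc2. As printed the groups overlap, since the lower Exo-AT score is under the higher Exo-ADSCs score. That lower score is in the column headed exo-at2, which followed the most counted tag more often than all tags. miR-28-3p itself lay off that line, so the pattern of the column does not account for this score. Whether the column is the same measure as the others is not known, and the overlap is no firm result. In the same table miR-151-5p had scores of 261 and 312 in the Exo-AT columns and 26 and 13 in the Exo-ADSCs columns, and these do not overlap, which holds for 88.9% of the 45 miRNAs listed. Its score of 312 is in the column headed exo-at2 too, so the same limit applies. The column headed exo-adsc2 followed the tag counts of Exo-ADSCs replicate 2 within 5% in 26 of 38 miRNAs, with 1.39 score units per count for miR-28-3p and 1.44 for miR-151-5p.

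Tag lengths differed between miR-28-3p and miR-151-5p. miR-28-3p had a mix of long and short tags in every library. miR-151-5p had tags of 21 to 22 nt in Exo-AT, and its 9 counts in Exo-ADSCs replicate 2 were all tags of 15 or 16 nt. The miR-28-3p tags shown next differ in where they end, marked by the last base in capitals.
miR-28-3p, 18 nt: cactagattgtgagctcC
miR-28-3p, 21 nt: cactagattgtgagctcctgG
miR-28-3p, 22 nt: cactagattgtgagctcctggA
miR-28-3p, 23 nt: cactagattgtgagctcctggaA
The 18 nt tag had 6 counts in replicate 1 and 93 in replicate 2 of Exo-AT, and 31 in replicate 2 of Exo-ADSCs, and the 21 nt tag had 8, 49 and 27. The 22 nt tag, which is the RefSeq mature sequence, had 2, 64 and 11. The 23 nt tag carries the change G23A against the hairpin, an A at its 3′ end where the deposited hairpin has another base, and had 2, 39 and 13 counts. Over all tags with it, G23A made up 9.09% of miR-28-3p counts in Exo-AT replicate 1 (2.53–27.8), 11.4% in Exo-AT replicate 2 (8.51–15.1), and 16% in replicate 2 of Exo-ADSCs (10.1 to 24.4). Over all named miRNAs a last base changed to A was found in 2.99% and 6.02% of counts in replicates 1 and 2 of Exo-AT, against 0.431% in Exo-ADSCs replicate 2.

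Tags of 21 to 23 nt held 54.5% of miR-28-3p counts in Exo-AT replicate 1 (interval 34.7–73.1), 52.2% in Exo-AT replicate 2 (47.1–57.3), and 59.0% in replicate 2 of Exo-ADSCs (49.2 to 68.1). These intervals overlap. Over all named miRNAs pooled, 21 to 23 nt tags were far fewer in Exo-ADSCs replicate 2. The mean length of miR-28-3p was 19.8 and 20.2 nt in Exo-AT and 20.2 nt in Exo-ADSCs replicate 2, against 20.8, 21.2 and 19.8 nt for all named miRNAs. With tags of 20 to 25 nt alone, the log2 fold change of miR-28-3p was -0.48, opposite in direction to that of all its tags, and did not pass (adjusted p = 0.56, edgeR).

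miR-151-5p consisted of 21 nt tags in Exo-AT, with 5 of 5 counts in replicate 1 and 46 of 48 in replicate 2, and the other 2 were 22 nt tags. In Exo-ADSCs replicate 2 its 9 counts were 5 of a 15 nt tag and 4 of a 16 nt tag. These are the first bases of the same sequence.
miR-151-5p, 15 nt: tCGAGGAGctcacag
miR-151-5p, 16 nt: tCGAGGAGctcacagt
They keep the seed, in capitals, and lack the 3′ end. The 15 and 16 nt tags were found in neither Exo-AT library, and the 21 nt tag was not found in Exo-ADSCs replicate 2. Counted as tags of 20 to 25 nt, miR-151-5p had 5 and 48 counts in replicates 1 and 2 of Exo-AT. In Exo-ADSCs replicate 2 it had 0. With Exo-ADSCs set at 3 counts, Exo-AT stood 11.8-fold higher by total counts and 7.12-fold higher with TMM factors. Both folds are scaled to named tags of every length, so they are no lower bound within this length class. Such tags were 80.8% and 84.5% of named counts in Exo-AT replicates 1 and 2, against 44.7% in Exo-ADSCs replicate 2. How far this library-wide difference enters the folds was not tested. In this length class the form entered the test through Exo-AT alone, so its test gives no support for a difference.

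miR-151-3p was mixed. Tags under 20 nt held 69.2% of its counts in Exo-AT replicate 1 (9 of 13, interval 42.4–87.3), 16.2% in Exo-AT replicate 2 (12.1–21.4), and 67.3% in replicate 2 of Exo-ADSCs (54.1 to 78.2). Over all named miRNAs such tags held 19.2% and 15.5% of counts in Exo-AT replicates 1 and 2 and 55.1% in Exo-ADSCs replicate 2. So miR-151-3p lay near its library's share in Exo-AT replicate 2, and in Exo-ADSCs replicate 2 its interval held that library's share. In Exo-AT replicate 1 its interval lay above the library's share. The intervals of the Exo-AT libraries do not overlap each other, and that of Exo-ADSCs replicate 2 overlaps that of Exo-AT replicate 1. This depends on tags that carry a mismatch or indel. Without them the share was 69.2% (42.4 to 87.3) and 41.6% (31.9 to 52.0) in Exo-AT replicates 1 and 2, and these intervals overlap. In Exo-ADSCs replicate 2 it was then 84.1% (70.6 to 92.1). The 16 nt tag shown above had 5 and 23 counts in replicates 1 and 2 of Exo-AT, against 35 in Exo-ADSCs replicate 2, where it was 63.6% of all miR-151-3p counts. Counted by that tag alone, the most common tag by summed share, miR-151-3p had a log2 fold change of -1.34, a direction opposite to that of all its tags, and did not pass (adjusted p = 0.163, edgeR).

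Among 105 forms with at least 9 counts in both Exo-AT replicate 2 and Exo-ADSCs replicate 2, a minimum set after the counts were seen so that miR-151-5p was kept, the difference in mean length was 5.60 nt for miR-151-5p, the second of 105. It was 2.90 nt for miR-151-3p, the eighth in that order, and -0.01 nt for miR-28-3p, at rank 61, against a median of 0.26 nt. This comparison is of 2 libraries and has no test.

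**Figure D4:**
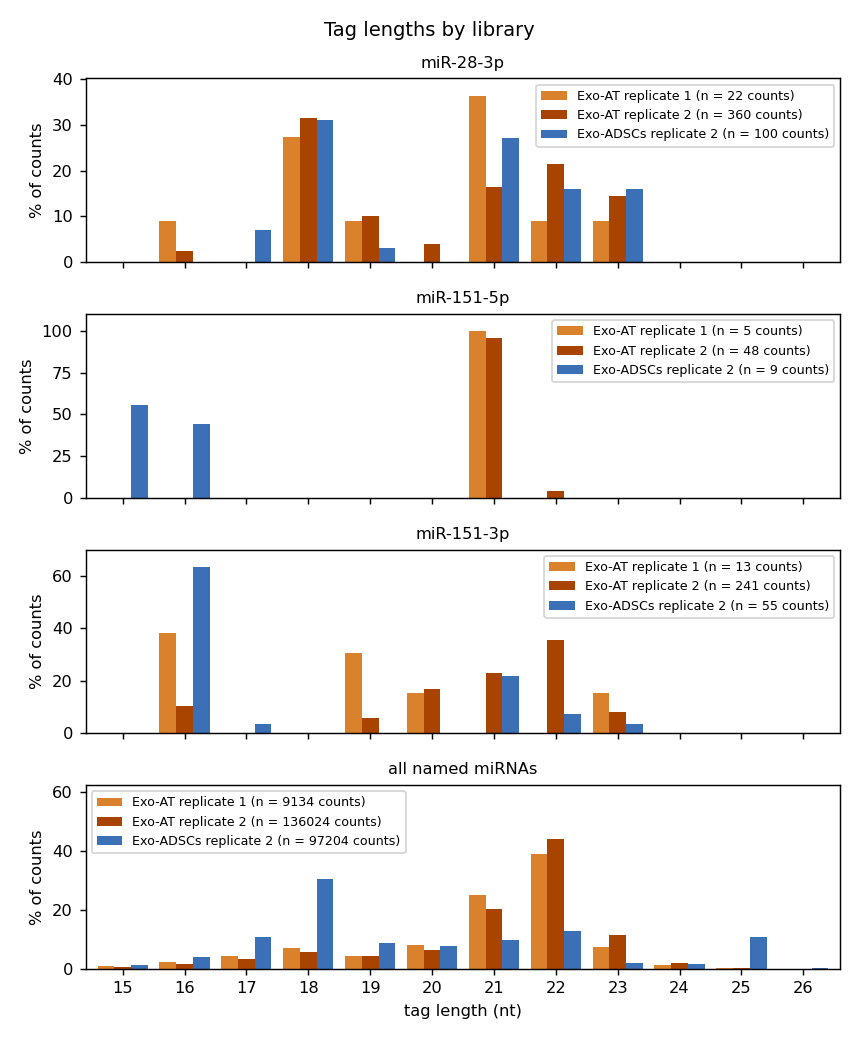
Share of counts (vertical, %) by tag length in nt (horizontal) for miR-28-3p, miR-151-5p, miR-151-3p and all named miRNAs in Exo-AT replicates 1 and 2 and Exo-ADSCs replicate 2. miR-28-3p has peaks at 18 nt and at 21 to 22 nt in each library, miR-151-5p is at 21 to 22 nt in Exo-AT and at 15 to 16 nt in Exo-ADSCs replicate 2, and miR-151-3p has a 16 nt peak in each.

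The 5′ ends were steady. The usual start, base 54 of the deposited miR-28 hairpin of 86 bases, was used by 90.9% and 93.1% of miR-28-3p counts in replicates 1 and 2 of Exo-AT, against 95% in Exo-ADSCs replicate 2. For miR-151-3p the usual start, base 51 of a hairpin of 97 bases, held 100% and 87.1% in Exo-AT and 96.4% in Exo-ADSCs replicate 2, and for miR-151-5p, base 16, it held 100% and 95.8% in Exo-AT and 100% in Exo-ADSCs replicate 2. A changed first base was found in Exo-AT replicate 2. There 45 of 360 miR-28-3p counts (12.5%, interval 9.47 to 16.3) carried the change C1A, counted from the tag's first base. It was carried by 0 of 22 in Exo-AT replicate 1 (upper limit 14.9%), and by 0 of 100 in Exo-ADSCs replicate 2 (upper limit 3.70%), so the interval of Exo-AT replicate 2 overlaps that of Exo-AT replicate 1 and lies above that of Exo-ADSCs replicate 2. The most counted such tag had 18 counts, with the changed base in capitals.
miR-28-3p, 18 nt, changed first base: Aactagattgtgagctcc
Counted from the tag's first base, the same change was found in 9 of 241 miR-151-3p and 2 of 48 miR-151-5p counts of Exo-AT replicate 2 and in none of the other libraries. The 2 miR-151-5p counts start at base 15, before the usual start, so the usual first base is unchanged in them. Of the 45 miR-28-3p counts, 3 likewise start at base 53 and 2 at base 56. Over all named miRNAs a first base changed to A was found in 0.821% and 1.14% of counts in replicates 1 and 2 of Exo-AT, against 0.140% in Exo-ADSCs replicate 2. Among 53 forms with at least 100 counts in Exo-AT replicate 2 whose usual first base is another, miR-28-3p ranked 3 and miR-151-3p 17, and the median was 0.568%.

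Without tags that carry a mismatch, miR-151-3p had a log2 fold change of 0.20 and did not pass (adjusted p = 0.816, edgeR).

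All 371 counts of the miR-151 hairpin carried the files' status R, and each tag was listed under that hairpin alone. A second named hairpin, rno-mir-3586 (Mir151b in RefSeq), overlaps it. The reverse complement of its 120 bases holds all 97 bases of the miR-151 hairpin. Tags listed under rno-mir-3586 had 2 and 10 counts in replicates 1 and 2 of Exo-AT, against 0 in Exo-ADSCs replicate 2, and 0 of these 2 tags lay in the shared bases. What that status means is not given in the sources used here. Of the miR-28 counts, 2 in Exo-AT replicate 2 had that status.

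Relatives of the pair were scarce. miR-708-5p, which shares the seed of miR-28-5p, had 4 and 18 counts in replicates 1 and 2 of Exo-AT, against 3 in Exo-ADSCs replicate 2, with a log2 fold change of 1.90 (SE 2.11, adjusted p = 0.48 by edgeR). miR-708-3p had 0 and 15 counts in replicates 1 and 2 of Exo-AT, against 0 in Exo-ADSCs replicate 2, at least 3.35-fold higher by total counts with Exo-ADSCs at 3 counts, and was not called. In the authors' deposited table miR-708-5p had scores of 98 and 249 in the Exo-AT columns and 10 and 0 in the Exo-ADSCs columns. Of 6 other hairpins known from human to overlap LINE-2 elements (miR-95, miR-325, miR-374, miR-421, miR-493 and miR-545), 3 forms had a count and 0 passed the filter. miR-374-5p had 9 counts in Exo-AT replicate 2 alone, and miR-421-3p with 14 and miR-493-3p with 7 had theirs in Exo-ADSCs replicate 2 alone.

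A further 12 hairpins overlap other old repeats in human. Of their 15 forms with a count, 7 were tested, 0 were higher in Exo-AT and 1 was lower, against 19.1% in each direction over all tested. The lower form was miR-378a-3p, known from mouse as an intronic miRNA of a metabolic coactivator gene, with 22 and 276 counts in replicates 1 and 2 of Exo-AT, against 352 in Exo-ADSCs replicate 2 (log2 fold change -1.59, SE 0.38, adjusted p = 0.000275 by edgeR). The log2 fold changes of the forms not called were 2.39 for miR-335-3p, -1.02 for miR-335-5p, -0.14 for miR-340-5p, -2.25 for miR-342-3p and 1.54 for miR-652-3p. miR-340-3p had 4 and 16 counts in replicates 1 and 2 of Exo-AT, against 0 in Exo-ADSCs replicate 2, and was not called. With Exo-ADSCs set at 3 counts, Exo-AT stood 4.46-fold higher by total counts. That fold is likewise no lower bound, and the form entered the test through Exo-AT alone. The median log2 fold change of the 7 was -0.14, whether miR-340-3p is taken at its fitted value or at that fold, against 0.37 over all 183 tested.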

How the data were processed

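Small RNA of about 15 to 35 nt was read for 36 cycles on an Illumina HiSeq, per the labels' protocols. The deposited tag files give raw counts per tag and hairpin, per the file headers, and no tag had under 2 reads. Novoalign 2.07.11 and rn6 are named in the submitters' processing notes, and for trimming and the miRNA release the entry is "not given in the sources used here". The deposited table gives a score the authors headed normalized reads, whose factor is not stated. The file of Exo-ADSCs replicate 1 names no miRNA and was not used.

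Tags were summed to arms by their midpoint, after removing the 5 bases the files count before a hairpin (3565 of 3567 exact tags), and genomic copies were joined. edgeR 4.0.16 in R 4.3.3 used its default filter (minimum count 10, minimum total 15) and TMM factors of 1.39 and 1.08 in Exo-AT and 0.664 in Exo-ADSCs replicate 2, with 1 residual degree of freedom per miRNA; it was tested on simulated data. The lone Exo-ADSCs library is assumed to vary like the Exo-AT libraries. DESeq2 1.42.0 and limma 3.58.1 were alternatives. No molecular identifiers are described, and both the intervals and the floors reflect counting error alone. Every form of both hairpins is named, with the relatives listed and the 3 forms most alike. Members and lists were chosen with earlier results of these data known. A result on miR-151-3p is not reported here.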

Additional observations from a re-analysis of the deposited data

How the results depend on the processing

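The counts of calls were 35 higher and 35 lower in Exo-AT. With DESeq2 size factors 23 were higher, with total-count scaling 19 were lower, and with predicted hairpins included 0 of 401 were called in either direction, with 25 at an unadjusted p under 0.05 by edgeR (DESeq2 and limma were not run on that set); the cause was not tested. The log2 fold change of miR-28-3p was 1.30 with total-count scaling and -0.48 with tags of 20 to 25 nt only. That of miR-151-3p was 1.52 with total-count scaling and -1.34 with the most common tag only, an alternative added after seeing the data. That of miR-151-5p was 7.49 with tags of 20 to 25 nt and 7.62 with the most common tag, fitted against 0 counts in Exo-ADSCs replicate 2 and so no measure of size. Without replicate 1 or 2 of Exo-AT, values with no test, it was 0.20 to 0.65 for miR-28-3p, 0.30 to 0.93 for miR-151-3p and 1.21 to 1.51 for miR-151-5p. In total 45 values counted as unchanged. Those with a test kept their direction and side of the threshold, and counts stayed within 1.5 times. Fold changes without an Exo-AT library counted as unchanged if they kept their direction and moved by no more than the SD between the Exo-AT libraries on the log2 scale. Of the arm shares and lengths, 10 of 45 moved beyond their counting error or the Exo-AT spread. No paired analysis was possible because libraries with tag counts share 1 replicate number between the groups. Counts of calls without an Exo-AT library, and the arm of miR-151 by its mature sequence, were not run. Depth limits Exo-AT replicate 1, where 1 count is 109 CPM.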
